A study of Mus musculus with 4 samples.

Results

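The genes described here encode the subunits of the mitochondrial respiratory chain and of ATP synthase. They were taken by symbol, as every gene whose name starts with Nduf followed by a class letter and a digit, the 4 Sdh subunit genes, and every name that starts with Uqcr, with Cox and a digit from 4 to 8, or with Atp5. This gave 85 of the 23235 symbols in the tables, with 37 named for complex I, 4 for complex II, 8 for complex III, 19 for complex IV and 17 for complex V, the ATP synthase. Poly(A)+ RNA was sequenced from primary fibroblasts of C57BL/6 mouse embryos, with 1 library per genotype. The 4 libraries were labelled wild type, Gadd45-/-, G3 Terc-/- (the 3rd generation without the telomerase RNA gene) and G3 dKO, which lacks both genes by its label. The design text names the first gene as Gadd45a, and the comparisons ask what either deficiency does with and without the other. The labels do not say how many embryos each culture came from, or its sex or passage.

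Values are FPKM as deposited, that is, fragments counted on a gene divided by its length in kilobases and by the library's mapped fragments, so levels of different genes can be set side by side per length. Differences are given on the log2(FPKM + 1) scale, which understates ratios of low genes, and folds are plain ratios of FPKM. With 1 library per genotype no test was possible, and no difference below has a replicate to check it. As a yardstick, 2 size rules were used, 2-fold and 1.5-fold on FPKM + 1, together with the same counts over the 11589 symbols with a mean of at least 1 FPKM. Of the 85 genes, 82 passed that minimum. The 3 that did not were Cox8b and Cox8c, listed at 0 in every library, and Cox7b2, at 0.15 FPKM in the G3 Terc-/- library and listed at 0 in the others.

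Complexes I and II pass electrons from NADH and succinate to ubiquinone, complex III hands them to cytochrome c, and complex IV reduces oxygen. Complexes I, III and IV pump protons across the inner mitochondrial membrane, and ATP synthase lets them flow back through a rotating ring of c subunits to drive the catalytic head. Most subunits are encoded in the nucleus and made in every cell, while several complex IV subunits and the complex I paralogue Ndufa4l2 also exist as isoforms known from muscle, lung, testis or low oxygen. None of the 13 subunits encoded by mitochondrial DNA was found by symbol among the values, so these were not analysed here.

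The estimated depth lay between 19500000 and 19900000 fragments in the 4 libraries. Gadd45a itself did not follow the labels, with 22.9 FPKM in wild type, 33.9 under the label Gadd45-/-, 31.4 in G3 Terc-/- and 45.1 under the label G3 dKO. Comparisons that turn on the Gadd45 label therefore follow the label and not a measured loss of the transcript. For Terc the 4 values were 0.53, 0.26, 0 and 0 FPKM. All 8 fibroblast markers were above 1 FPKM in every library, and their summed level was 10189.6 FPKM in the wild-type library, 10691 in that labelled Gadd45-/-, 5561 in G3 Terc-/- and 9265 in the library labelled G3 dKO. Of 5 brown adipocyte markers, Fabp4 stood at 32.2 FPKM in G3 Terc-/- and at 4.57 to 7.34 in the others, while the remaining 4 (Ucp1, Cidea, Adipoq and Pparg) summed to 1.75, 2.34, 0.77 and 1.28 FPKM, lowest in G3 Terc-/-, with Ucp1 at 0.036 FPKM or lower throughout. The fibroblast sum was lowest in the G3 Terc-/- library, where the subunit differences were also widest, and its part in them was not tested. In bulk RNA, fewer cells of a type and less RNA per cell cannot be told apart. The library labelled Gadd45-/- held the Y-linked Ddx3y at 16.4 FPKM and Xist at 0.15 FPKM, whereas Xist lay between 24.0 and 34.1 FPKM in the others, so in these libraries sex and that label cannot be told apart.

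The common subunits differed less between the libraries than measured genes at large. Leaving out the restricted isoforms and 4 genes that are not subunits of the complex their symbol names, 73 common subunits remained. Ndufa4, now assigned to complex IV, was kept among the 73 with complex I by its symbol. For the 73, the highest of the 4 FPKM values was a median of 1.19 times the lowest. The ratio was under 1.5 for 67 of the 73 genes (91.8%), against 50.1% of the 11568 measured symbols above 0 in each library, whose median ratio was 1.5. That background reaches down to a mean of 1 FPKM, whereas the lowest mean among the 73 was 10.6 FPKM. It was not matched for level, and genes of restricted expression were not taken out of it. The widest ratio was 4.46, for Ndufs5. Ndufs5 is kept apart from the other 72 below, a choice made after its values were seen, although other members with an annotated copy were kept, and without it the ratio reached at most 1.98. Together the 82 measured genes made up 2.35% of all FPKM in the wild-type library, 2.37% in that labelled Gadd45-/-, 2.42% in G3 Terc-/- and 2.42% in the library labelled G3 dKO.

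Between the G3 Terc-/- and wild-type libraries, 5 of the 82 genes (6.10%) were at least 2-fold higher in G3 Terc-/-, against 9.93% of all measured symbols, and 1 (1.22%) was at least 2-fold lower, against 6.25%. The 5 were Ndufa4l2, Cox4i2, Cox6b2, Cox7a1 and Ndufs5, and the lower gene was Cox6a2. All but Ndufs5 are isoforms of restricted expression. At the 1.5-fold size rule 8 were higher, against a background of 19.1%, and 2 were lower, against 15.2%. These added Ndufv3, Ndufa6 and Ndufa7 on the higher side and Ndufs8 on the lower side. The median over all 82 was -0.07, beside 0.01 over all measured symbols. The plot of differences by complex shows the restricted isoforms far from the rest of the family.

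**Figure D1:**
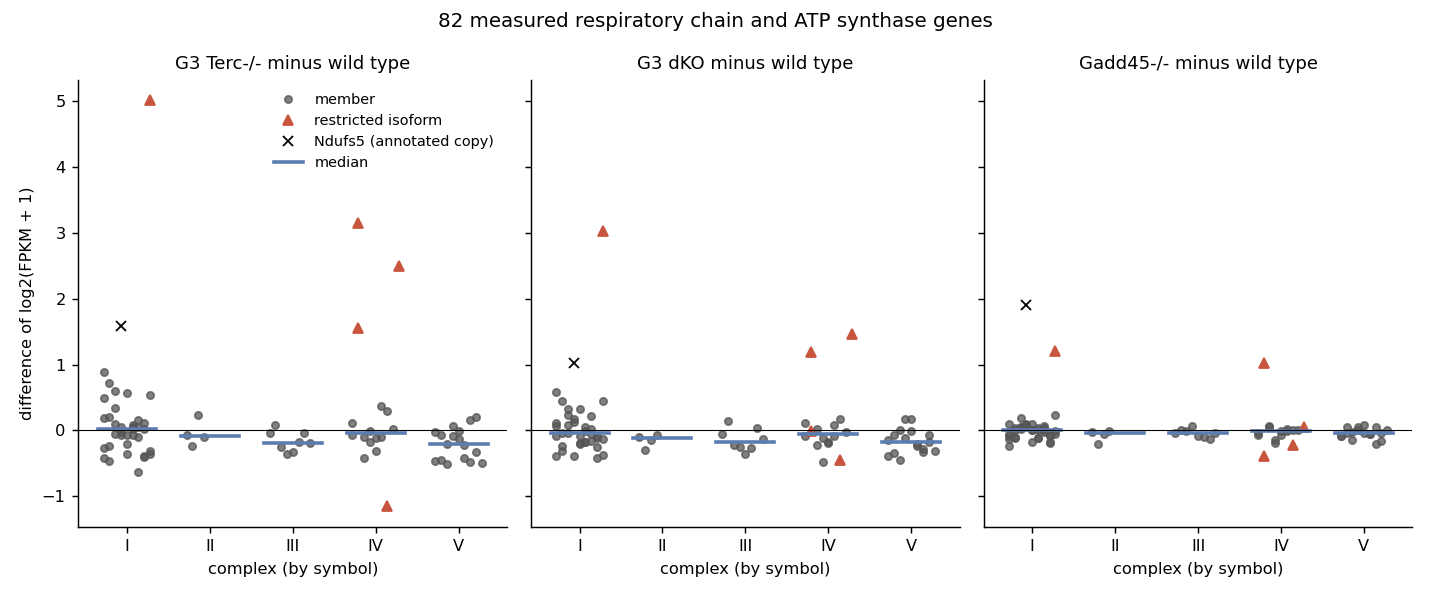
Difference of log2(FPKM + 1) for each of the 82 measured genes (points), by the complex its symbol names, for the G3 Terc-/- library, the library labelled G3 dKO and the library labelled Gadd45-/-, each minus wild type. Triangles are restricted isoforms, the cross is Ndufs5 and the bars are medians; Ndufa4l2 reaches 5.02 in G3 Terc-/- while the medians of the 5 complexes in that panel lie between -0.20 and 0.03.

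Ndufa4l2, a paralogue of Ndufa4 known as a hypoxia-induced gene that lowers complex I activity, showed the widest range. It measured 0.41 FPKM in the wild-type library, 2.24 in that labelled Gadd45-/-, 44.7 in G3 Terc-/- and 10.4 in the library labelled G3 dKO. Both G3 libraries were above both others, and the G3 Terc-/- value was 110 times the wild-type value (log2 difference 5.02). The wild-type value rests on an estimated 7 fragments (95% Poisson interval 2.81 to 14.4, counting error only) and the G3 Terc-/- value on 822. Fragments were estimated by full transcript length, here and below, which may overstate them for short genes. Its exons overlap those of Shmt2, a mitochondrial serine enzyme on the opposite strand, and the strand setting of the counting is not given. Shmt2 had 108, 93.4, 34.4 and 51.0 FPKM across the same libraries, so it ran the opposite way. The common paralogue Ndufa4, now assigned to complex IV but counted here with complex I by its symbol, stood at 289, 272, 294 and 271 FPKM and differed by at most 1.09-fold. As a share of the summed FPKM of the pair, Ndufa4l2 made up 0.14% in wild type, 0.82% in the library labelled Gadd45-/-, 13.2% in G3 Terc-/- and 3.71% in the library labelled G3 dKO.

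Cox4i2, the lung-rich and oxygen-sensitive isoform of complex IV subunit Cox4, was high in the G3 Terc-/- library alone among the 4. Its values were 0.69 FPKM in the wild-type library, 0.29 in that labelled Gadd45-/-, 14.0 in G3 Terc-/- and 0.67 in the library labelled G3 dKO. The log2 difference was 3.15 for G3 Terc-/- against wild type and -3.16 for the library labelled G3 dKO against G3 Terc-/-, while the library labelled G3 dKO differed from wild type by -0.01. The 3 low values stand for an estimated 10, 4 and 10 fragments and the high value for 200. Its common counterpart Cox4i1 stood at 581, 556, 628 and 549 FPKM, and Cox4i2 was 2.17% of the pair in G3 Terc-/- and between 0.0516% and 0.122% in the others.

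Cox6b2, the isoform of Cox6b known from testis, stood at 6.79 FPKM in the wild-type library, 7.08 in that labelled Gadd45-/-, 43.1 in G3 Terc-/- and 20.5 in the library labelled G3 dKO. Both G3 libraries were above both others, with log2 differences from wild type of 2.50 and 1.47. Its ubiquitous counterpart Cox6b1 was at 412, 412, 418 and 404 FPKM, the narrowest range of the pairs shown, and the Cox6b2 share of the pair went from 1.62% in wild type to 9.35% in G3 Terc-/- and 4.83% in the library labelled G3 dKO. The 4 testis and germ cell markers Ddx4, Dazl, Prm1 and Tnp1 were each under 1 FPKM in every library, with sums between 0.12 and 0.69 FPKM.

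Cox7a1, the heart and skeletal muscle isoform of Cox7a, stood at 2.84 FPKM in wild type and was higher in each of the others, at 6.78 in the library labelled Gadd45-/-, 10.3 in G3 Terc-/- and 7.71 in the library labelled G3 dKO. The log2 differences from wild type were 1.02, 1.56 and 1.18. Its counterpart Cox7a2 stood at 90.9, 94.0, 84.2 and 92.4 FPKM. Cox6a2, also a heart and skeletal muscle isoform, went the other way, from 2.48 FPKM in wild type and 1.98 in the library labelled Gadd45-/- to 0.56 in G3 Terc-/- and 1.54 in the library labelled G3 dKO. The G3 Terc-/- value rests on an estimated 7 fragments and the wild-type value on 33. Cox6a1, the common form and the most abundant of the complex IV genes, was at 681, 692, 876 and 722 FPKM, highest in the G3 Terc-/- library. Of 7 skeletal muscle markers, Acta1 stood at 38.0, 56.4, 66.6 and 120 FPKM, highest in the library labelled G3 dKO, while Myod1, Myog, Myf5 and Ckm were at 0.25 FPKM or lower throughout. Mylpf stood at 0.65, 1.73, 1.2 and 1.73 FPKM and Tnnt3 at 0.78, 0.53, 0.83 and 0.44 FPKM. The list summed to 39.8, 58.7, 68.7 and 122 FPKM. Acta1 and Mylpf were lowest in wild type, as was Cox7a1. Other markers were not: Ckm (0.25 FPKM) and Myog (0.04 FPKM) were above 0 in wild type only. Myod1 was at 0.06 FPKM in wild type and in the library labelled G3 dKO, and at 0 in the others. Tnnt3 was lowest in the library labelled G3 dKO. The 6 cardiac muscle markers summed to 2.30, 1.51, 1.74 and 4.89 FPKM, lowest in the library labelled Gadd45-/-. The exons of Cox6a2 overlap those of Itgad on the opposite strand. The part of muscle transcripts in the Cox7a1 and Cox6a2 values was not tested.

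In the Cox6b and Cox7a pairs the restricted gene passed the 2-fold rule and the common gene did not reach the 1.5-fold rule in any comparison, so the 250 bases before the start sites of all 4 genes are shown. They are from RefSeq, build GRCm38.p6, written 5′ to 3′ on the gene's strand, with capitals marking any match to 3 motif words searched on both strands: GCGCA and GCGC with any base between them for NRF1, CCGGAAG for the ETS family that includes GABP, and ACGTG, the core of the hypoxia response element. Cox6b1 holds an ETS word that starts 28 bases before the start site, and none of the 3 words is in this window of Cox6b2, Cox7a1 or Cox7a2.
Cox6b1, chr7:30626115-30626364, minus strand: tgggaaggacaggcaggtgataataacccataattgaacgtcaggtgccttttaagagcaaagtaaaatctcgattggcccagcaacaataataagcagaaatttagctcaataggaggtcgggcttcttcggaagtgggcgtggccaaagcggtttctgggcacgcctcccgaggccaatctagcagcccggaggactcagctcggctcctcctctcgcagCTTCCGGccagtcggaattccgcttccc
Cox6b2, chr7:4753095-4753344, minus strand: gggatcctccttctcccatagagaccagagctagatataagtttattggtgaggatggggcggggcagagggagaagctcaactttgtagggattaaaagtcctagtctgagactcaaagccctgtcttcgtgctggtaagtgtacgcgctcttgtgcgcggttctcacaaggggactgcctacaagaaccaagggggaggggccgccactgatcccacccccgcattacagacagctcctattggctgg
Cox7a1, chr7:30183921-30184170, plus strand: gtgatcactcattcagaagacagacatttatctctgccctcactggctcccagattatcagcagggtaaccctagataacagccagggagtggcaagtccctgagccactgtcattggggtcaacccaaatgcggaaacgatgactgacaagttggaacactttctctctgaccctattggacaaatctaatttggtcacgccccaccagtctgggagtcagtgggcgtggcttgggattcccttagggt
Cox7a2, chr9:79759854-79760103, minus strand: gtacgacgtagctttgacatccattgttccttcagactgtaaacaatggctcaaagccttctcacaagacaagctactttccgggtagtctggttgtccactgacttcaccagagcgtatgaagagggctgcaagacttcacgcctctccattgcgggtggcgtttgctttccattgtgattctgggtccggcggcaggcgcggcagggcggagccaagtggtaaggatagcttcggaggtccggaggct

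**Figure D2:**
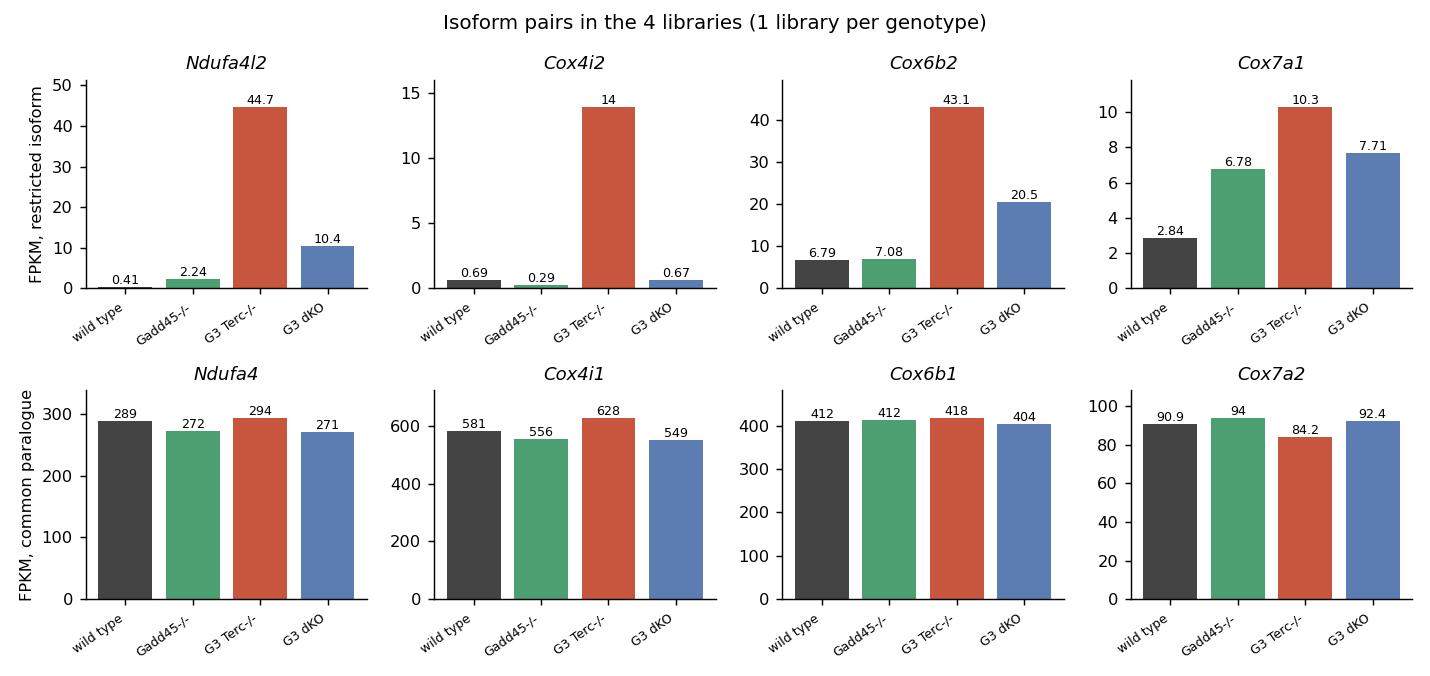
FPKM of 4 restricted isoforms (upper row) and of the common paralogue of each (lower row) in the 4 libraries; bars start at 0, each panel has its own scale, and there is 1 library per genotype and no error bar. Ndufa4l2, Cox4i2, Cox6b2 and Cox7a1 are each highest in G3 Terc-/-, and their paralogues differ by at most 1.14-fold between libraries.

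Ndufs5, an accessory subunit of complex I, was the only common subunit past the 2-fold rule. It stood at 3.74 FPKM in the wild-type library, 16.7 in that labelled Gadd45-/-, 13.2 in G3 Terc-/- and 8.67 in the library labelled G3 dKO. The wild-type value was the lowest, and its distance from the library labelled Gadd45-/- (1.90) was the widest of any member in that comparison. Its mean of 10.6 FPKM was the lowest of the 29 accessory subunits. The gene has a near-identical annotated copy, BC002163, which was listed at 0 in all 4 libraries, and fragments that match both can be divided between them in counting, so its values are uncertain. Near-identical copies, with at least 95% identity over at least 80% of the coding length, were found for 21 of the 85 genes.

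Complex I divided by role. Of its 7 nuclear-encoded core subunits, which carry the flavin, the iron-sulfur clusters and the ubiquinone site, 6 were lower in G3 Terc-/- than in wild type, with a median of -0.36 and all but Ndufs8 within the 1.5-fold rule. The 29 accessory subunits, which surround the core and stabilise it, had a median of 0.06, with 18 above and 11 below 0. Ndufa4 is among the 29 by its symbol. Over all measured symbols 49.6% were below 0. Against wild type, the library labelled G3 dKO had all 7 core subunits below 0 (median -0.18, background 54.6%) and 14 of 29 accessory subunits below 0 (median 0.02). The summed level of the core was 468 FPKM in the wild-type library, 449 in that labelled Gadd45-/-, 388 in G3 Terc-/- and 391 in the library labelled G3 dKO, whereas that of the accessory subunits was 3152, 3150.3, 3458 and 3249.6 FPKM.

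Ndufs8, an iron-sulfur subunit, had the lowest difference of the common subunits (-0.63) in G3 Terc-/-. It stood at 57.4 FPKM in the wild-type library, 56.2 in that labelled Gadd45-/-, 36.6 in G3 Terc-/- and 51.0 in the library labelled G3 dKO, so only the G3 Terc-/- value stood apart. Ndufv1, which binds the flavin and oxidises NADH, stood at 63.6, 55.4, 48.4 and 47.4 FPKM, with both G3 libraries low. The iron-sulfur subunit Ndufs1 had the same order at 33.6, 32.3, 25.9 and 25.7 FPKM. Ndufv2, another iron-sulfur subunit, was lower in G3 Terc-/- by 0.31 and Ndufs7 by 0.07 on the log2 scale. Ndufs3 was the exception and was highest in G3 Terc-/-, at 66.3 FPKM beside 57.3 in wild type. It has a near-identical annotated copy, and its exons overlap those of Kbtbd4 on the opposite strand.

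Among the accessory subunits the higher values in G3 Terc-/- were the wider ones. Ndufv3, a small subunit of the NADH-oxidising arm, stood at 99.1 FPKM in the wild-type library, 92.9 in that labelled Gadd45-/-, 184 in G3 Terc-/- and 149 in the library labelled G3 dKO. Its G3 Terc-/- difference of 0.89 was the largest of the 72 common subunits, and both G3 libraries were above both others. Ndufa6 also had both G3 libraries above both others, at 63.7, 65.5, 105 and 86.7 FPKM (0.72). Ndufa7 followed at 199, 205, 301 and 233 FPKM (0.59), and Ndufa13, also known as Grim19, at 69.0, 73.6, 102 and 86.9 FPKM (0.56). In these 4 genes the library labelled G3 dKO lay between G3 Terc-/- and the pair without the G3 label. Ndufb3 (0.53), which has a near-identical annotated copy, and the X-linked Ndufa1 (0.50) were next. Ndufa1 stood at 79.4, 67.2, 112 and 85.7 FPKM, and the other X-linked complex I gene, Ndufb11, at 74.0, 75.8, 68.7 and 75.1 FPKM. On the lower side stood Ndufb5 (-0.46), Ndufb2 (-0.40) and Ndufb8 (-0.36). Ndufa3 had the highest mean level of complex I, with values from 296 FPKM in wild type to 343 in the library labelled G3 dKO.

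**Figure D3:**
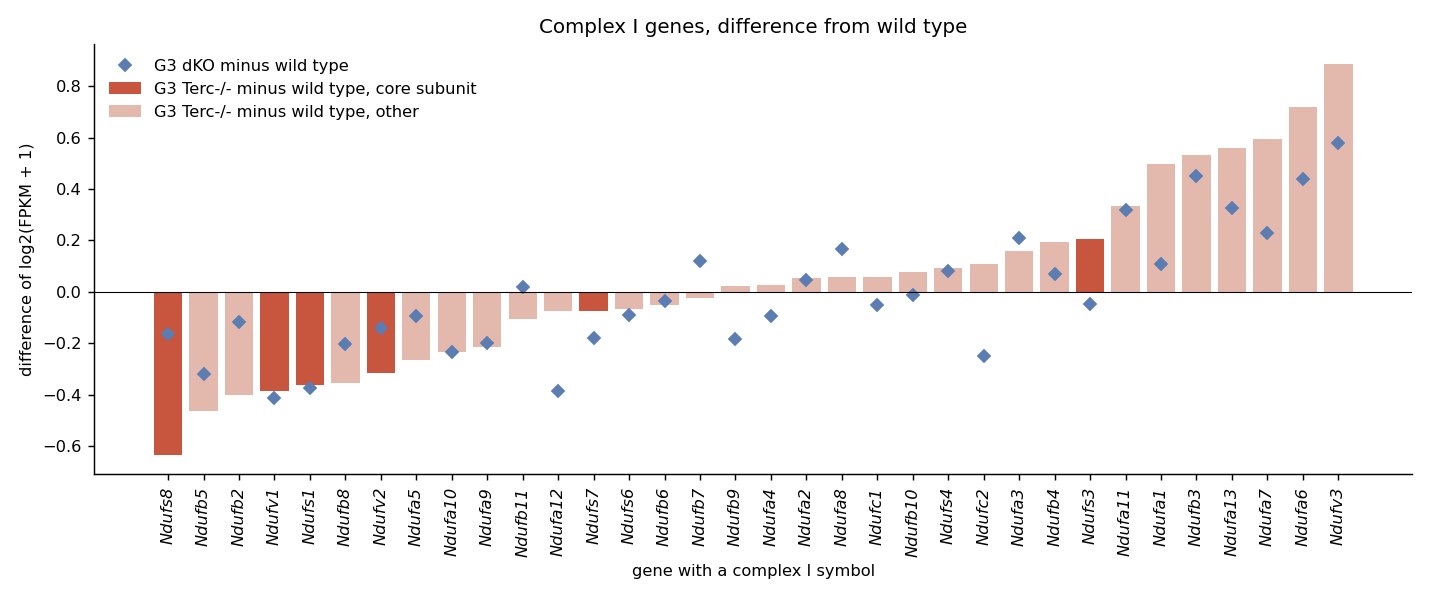
Difference of log2(FPKM + 1) from wild type for complex I genes, without Ndufa4l2, Ndufs5 and 1 core subunit, in rising order of the G3 Terc-/- difference (bars, with core subunits darker); diamonds give the library labelled G3 dKO minus wild type. Of the 6 core subunits shown 4 are among the 7 lowest bars, from -0.63 for Ndufs8, while Ndufs3 stands at 0.21, and Ndufv3 at 0.89 is the highest bar.

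Complex II, which is also the succinate dehydrogenase of the tricarboxylic acid cycle, had none of its 4 genes past the 1.5-fold rule in any comparison. The flavoprotein gene Sdha stood at 77.6, 76.1, 73.5 and 72.5 FPKM in wild type, the library labelled Gadd45-/-, G3 Terc-/- and the library labelled G3 dKO. Sdhb, which carries the iron-sulfur clusters, stood at 100.3, 86.7, 85.3 and 81.2 FPKM, highest in wild type. Of the membrane anchors, Sdhd ranged from 59.9 to 64.1 FPKM, and Sdhc was highest in G3 Terc-/- at 93.1 FPKM beside 71.2 to 78.7 in the others.

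Complex III had 7 of its 8 genes below 0 in G3 Terc-/- against wild type (background 49.6%), with a median of -0.19. The widest differences were in the 2 core proteins. Uqcrc1 stood at 105, 110, 81.3 and 87.8 FPKM and Uqcrc2 at 58.2, 55.0, 46.0 and 45.0 FPKM in wild type, the library labelled Gadd45-/-, G3 Terc-/- and the library labelled G3 dKO. Both G3 libraries were below both others for each gene. Uqcrfs1, the Rieske iron-sulfur protein, was lower in the G3 Terc-/- library by 0.18 and in the library labelled G3 dKO by 0.27 on the log2 scale. The 5 small subunits had a median of -0.04. Uqcrq, the most abundant, stood at 413, 402, 359 and 375 FPKM, and Uqcr10 was level across the libraries at 197 to 205 FPKM.

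The 10 common subunits named for complex IV, which leave out Ndufa4, had a median of -0.09 in G3 Terc-/- against wild type. Of the 10, 6 were below 0 (background 49.6%) and none was past the 1.5-fold rule. Cox5b, which binds zinc, was lowest in G3 Terc-/- at 269 FPKM beside 333 in wild type, 317 in the library labelled Gadd45-/- and 291 in the library labelled G3 dKO. It has a near-identical annotated copy. Cox5a was lowest in the library labelled G3 dKO, at 124 FPKM beside 175 in wild type, 158 in the library labelled Gadd45-/- and 154 in G3 Terc-/-. Cox8a stood at 437, 438, 536 and 490 FPKM and was highest in G3 Terc-/-, as was Cox6a1. The X-linked Cox7b ranged from 74.3 to 84.0 FPKM. Cox7a2l, which is no subunit but a factor that joins complexes III and IV into supercomplexes, ranged from 121 to 138 FPKM.

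In G3 Terc-/- against wild type, ATP synthase had the largest share of subunits on one side of 0 among the 5 complexes. Of its 15 subunit genes, 14 were lower in the G3 Terc-/- than in the wild-type library, against 49.6% of all measured symbols, with a median of -0.23, although none passed the 1.5-fold rule. The G3 Terc-/- library was the lowest of the 4 for 12 of the 15, against 34.2% of all measured symbols. Their summed level was 4196 FPKM in the wild-type library, 4139 in that labelled Gadd45-/-, 3569 in G3 Terc-/- and 3823 in the library labelled G3 dKO. Against G3 Terc-/-, the library labelled G3 dKO had 13 of 15 above 0 (median 0.12, background 46.2%), a comparison that shares the G3 Terc-/- library with the one before. Against wild type it had 12 of 15 below 0 (background 54.6%), with a median of -0.18.

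The catalytic head of the enzyme carried wide differences. Atp5b, the catalytic beta subunit and the most abundant gene of the complex, stood at 669 FPKM in the wild-type library, 648 in that labelled Gadd45-/-, 486 in G3 Terc-/- and 528 in the library labelled G3 dKO. Its partner in the head, the alpha subunit Atp5a1, stood at 264, 248, 191 and 201 FPKM, and Atp5c1, the gamma subunit that turns inside the head, at 137, 123, 95.5 and 99.7 FPKM. All 3 had both G3 libraries below both others, with G3 Terc-/- lowest, and their log2 differences from wild type there were -0.46, -0.46 and -0.51. The exons of Atp5a1 overlap those of Haus1 on the opposite strand, which stood far lower, at 7.20 to 15.0 FPKM. The small subunits at the foot of the head, Atp5d and Atp5e, differed by -0.08 and -0.01. Of the 4 genes of the peripheral stalk, which holds the head still, Atp5f1 stood apart at 124, 120, 92.3 and 106 FPKM. Atp5o, Atp5j and Atp5h were lower in G3 Terc-/- by 0.23, 0.07 and 0.02 on the log2 scale. All of these 4 but Atp5j have near-identical annotated copies. The small membrane subunits Atp5j2, Atp5l and Atp5k had differences of -0.20, -0.13 and 0.06.

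The c ring is encoded by Atp5g1, Atp5g2 and Atp5g3, whose products differ in their targeting peptides and give the same mature subunit. Atp5g1 stood at 137 FPKM in the wild-type library, 142 in that labelled Gadd45-/-, 98.4 in G3 Terc-/- and 112 in the library labelled G3 dKO. Atp5g2 followed at 281, 274, 225 and 249 FPKM, and Atp5g3 at 340.04, 339.96, 239.6 and 273 FPKM. In each of the 3 the order was the same on the G3 side, with G3 Terc-/- lowest and the library labelled G3 dKO next. Their sum was 759 FPKM in the wild-type library, 756 in that labelled Gadd45-/-, 563 in G3 Terc-/- and 634 in the library labelled G3 dKO, and the share of each gene in it moved little, with Atp5g3 at 42.6% to 45.0%. Atp5g1 and Atp5g2 have near-identical annotated copies, and none was found for Atp5g3.

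Because these 3 genes supply 1 protein and were all lowest in G3 Terc-/-, the 250 bases before each start site are shown, from RefSeq, build GRCm38.p6, with the same 3 words in capitals. The palindrome CACGTG holds the word ACGTG on both strands. It is found in Atp5g3 and in Atp5g1, which has a further ACGTG, while Atp5g2 has an NRF1 word 42 bases before the start and an ACGTG on the other strand. Of the 3 words, ACGTG is the one found in all 3 windows. It is also in 17.8% of such windows over all protein-coding genes. Whether it bears on the levels of these 3 genes was not tested.
Atp5g1, chr11:96075632-96075881, minus strand: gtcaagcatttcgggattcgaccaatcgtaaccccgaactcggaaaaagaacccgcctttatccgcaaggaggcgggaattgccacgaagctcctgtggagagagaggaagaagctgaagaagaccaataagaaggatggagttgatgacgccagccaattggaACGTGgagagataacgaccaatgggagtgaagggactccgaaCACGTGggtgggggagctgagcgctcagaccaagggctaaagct
Atp5g2, chr15:102671048-102671297, minus strand: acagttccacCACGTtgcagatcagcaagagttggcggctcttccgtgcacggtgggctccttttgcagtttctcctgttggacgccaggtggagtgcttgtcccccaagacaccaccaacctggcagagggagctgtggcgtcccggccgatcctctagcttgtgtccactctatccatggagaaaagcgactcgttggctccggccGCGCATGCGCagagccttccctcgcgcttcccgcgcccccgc
Atp5g3, chr2:73911327-73911576, minus strand: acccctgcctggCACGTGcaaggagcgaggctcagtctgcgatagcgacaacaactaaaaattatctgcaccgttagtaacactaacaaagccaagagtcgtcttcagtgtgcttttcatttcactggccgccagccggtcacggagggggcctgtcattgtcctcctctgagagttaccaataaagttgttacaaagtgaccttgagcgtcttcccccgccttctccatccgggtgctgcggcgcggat

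**Figure D4:**
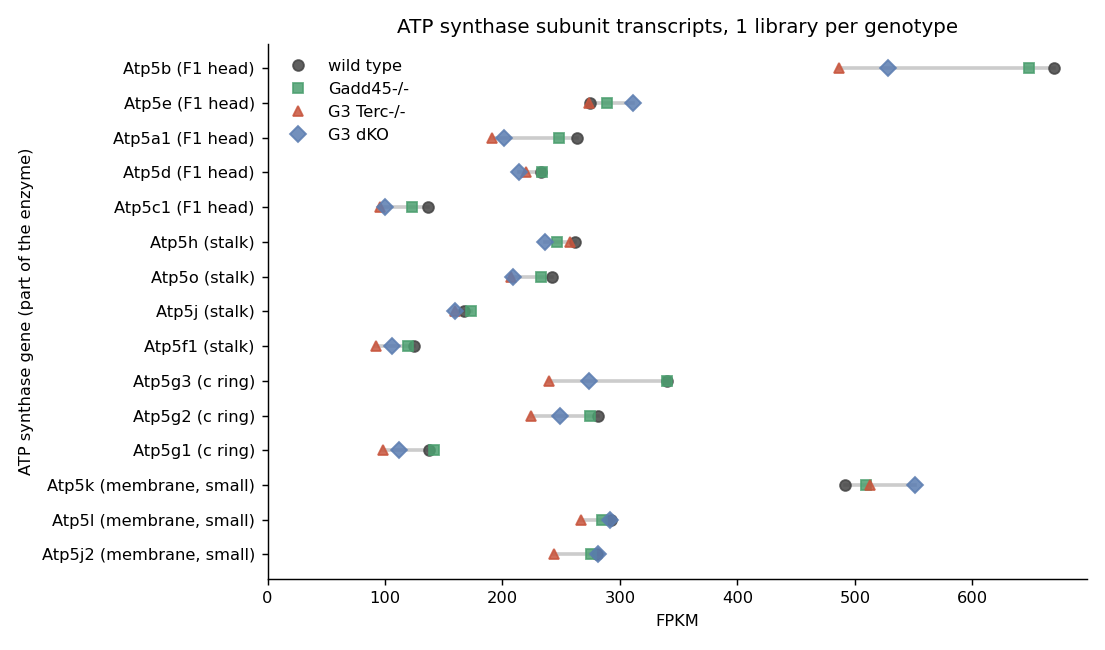
FPKM of the 15 ATP synthase subunit genes in the 4 libraries, by part of the enzyme; each symbol is 1 library and the grey bar spans the 4 values. The red triangle of G3 Terc-/- is the leftmost symbol for 12 of the 15 genes, with the widest spans in Atp5b, Atp5g3 and Atp5a1.

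Over the family, 69 of the 85 genes had a RefSeq promoter entry, with 75 promoters in all. The NRF1 word was in 18.7% of these windows, against 5.18% of 21262 promoters of 17491 protein-coding genes. The ETS word was in 16% against 8.98%, and ACGTG in 24% against 17.8%. Median GC content was close, at 56% and 55.6%. Among the 4 restricted isoforms with an entry, none held the NRF1 or the ETS word and 1 held ACGTG. These 4 include Cox7b2 and Cox8b, which did not reach the minimum level. With 4 windows, no comparison with the shares above can be made. The genes without an entry included Atp5a1, Cox4i1, Cox4i2, Cox4nb, Cox6a2, Cox6c, Cox8c, Ndufa2, Ndufa4l2, Ndufb9, Ndufs1, Sdhc, Uqcrb, Uqcrc2 and Uqcrq.

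The other 4 comparisons had fewer members past the 2-fold rule, and since all 5 share libraries their values are given side by side. Between the library labelled G3 dKO and G3 Terc-/-, none of the 82 genes was at least 2-fold higher, against 1.51%, and 3 (3.66%) were at least 2-fold lower, against 4.78%. These were Cox4i2 (-3.16), Ndufa4l2 (-2.00) and Cox6b2 (-1.04). The median was -0.01, beside -0.03 over all measured symbols. Cox6a2 was the only gene at least 1.5-fold higher (0.71, background 6.16%), and Ndufs8 was next at 0.47.

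Between the library labelled Gadd45-/- and wild type, 3 genes (3.66%) were at least 2-fold higher, against 0.319%, and none was 2-fold lower, against 0.198%. They were Ndufs5 (1.90), Ndufa4l2 (1.21) and Cox7a1 (1.02), each with a wild-type level under 4 FPKM, and no further gene passed the 1.5-fold rule, which 1.73% of all symbols passed upwards and 0.725% downwards. No common subunit other than Ndufs5 differed by more than 0.24 in either direction, and 48 of the 82 were below 0, against 57.5%, with a median of -0.02 beside -0.03. For Ndufa4l2, the comparison by the Gadd45 label thus stood at 1.21 among libraries with Terc and at -2.00 among G3 libraries.

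Between the library labelled G3 dKO and that labelled Gadd45-/-, Ndufa4l2 (1.82) and Cox6b2 (1.41) were at least 2-fold higher, 2 genes or 2.44% against 2.49%, and none was 2-fold lower, against 2.36%. Ndufv3 passed the 1.5-fold rule as well at 0.67 (background 8.09%), and Ndufs5 passed it downwards at -0.87 (background 7.83%). Below 0 were 54 of the 82 genes, against 51.2% of all symbols. Between the library labelled G3 dKO and wild type, 4 genes (4.88%) were at least 2-fold higher, against 3.81%, and none was 2-fold lower, against 2.86%. These were Ndufa4l2 (3.03), Cox6b2 (1.47), Cox7a1 (1.18) and Ndufs5 (1.03), and the 1.5-fold rule added none, against 10.1% of symbols higher and 9.53% lower by it. Here 55 of the 82 genes were below 0, against 54.6% of all symbols, with a median of -0.09 beside -0.04.

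Transcript length ran with the differences among the common subunits. Length is that of the longest annotated coding transcript with a RefSeq match, which need not be the one expressed. By it Atp5g1 has 4715 nt, beside 731 for Atp5g2 and 723 for Atp5g3. In G3 Terc-/- against wild type, the 20 genes with transcripts under 600 nt had a median of 0.05, the 25 between 600 and 1000 nt -0.07, the 9 between 1000 and 1500 nt -0.12, the 14 between 1500 and 2500 nt -0.36 and the 4 longer ones -0.22. Over all measured symbols the medians of these classes lay between -0.07 and 0.03, with the lowest in the shortest class. Across the 72 genes, Pearson's r with log10 length was -0.37 and Spearman's rho -0.48. For the library labelled G3 dKO against wild type they were -0.45 and -0.56. These are descriptions across genes, which share the same libraries and are not replicates. Role and length partly ran together, as the differences in G3 Terc-/- against wild type show. The head subunits Atp5a1, Atp5b and Atp5c1 (-0.46, -0.46 and -0.51) are over 1500 nt. Atp5d and Atp5e (-0.08 and -0.01) are under 1000 nt. The core subunits Ndufs1, Ndufv1 and Ndufv2 (-0.36, -0.39 and -0.31) are over 1500 nt. Ndufs3 (0.21) has 1046 nt, and Ndufs7 (-0.07) and Ndufs8 (-0.63) are under 1000 nt. The accessory subunit Ndufv3 (0.89) is over 1500 nt. The part of length in the differences by role was not tested.

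The pathway around the chain was described with lists of other genes. The 15 genes listed for complex I assembly had a median of -0.00 in G3 Terc-/- against wild type. They include Ndufab1 (0.26), itself an accessory subunit of complex I that the symbol rule leaves out. The 9 measured complex II and III assembly factors had a median of 0.23, the 21 complex IV assembly factors 0.05 and the 4 ATP synthase assembly and inhibitor genes -0.07. Cyc1 was counted with the carriers and shuttles, of which 10 were measured. Of these, the ATP/ADP exchanger Slc25a5 was more than 2-fold lower in G3 Terc-/-, at 292, 263, 127 and 168 FPKM. Slc25a4, its muscle-type paralogue, stood at 518, 504, 442 and 528 FPKM. All 14 genes of the tricarboxylic acid cycle were below 0 in the library labelled G3 dKO against wild type (median -0.15, background 54.6%) and 11 in G3 Terc-/- (median -0.25, background 49.6%), with Idh2 at 74.1, 68.9, 27.2 and 42.1 FPKM. Of the 13 measured regulators of mitochondrial gene expression (median -0.29), Nrf1 stood at 10.2, 8.66, 5.91 and 6.47 FPKM and Pprc1 at 22.8, 21.5, 12.1 and 16.7, both lower in the G3 libraries, and Esrra was higher there, at 18.7, 18.0, 28.7 and 22.8 FPKM. Ppargc1a was at 0.056 FPKM or lower in every library.

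Other large protein machines had lower medians than the respiratory chain in the same comparison. The common subunits stood at -0.07, beside -0.28 for 76 mitochondrial ribosomal proteins, -0.46 for 83 cytoplasmic ribosomal proteins and -0.20 for 38 proteasome subunits. ATP synthase, at -0.23, and the complex I core, at -0.36, lay within the range of those lists, and complex IV, at -0.09, and the complex I accessory subunits, at 0.06, above it. These differences between lists were not tested.

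**Figure D5:**
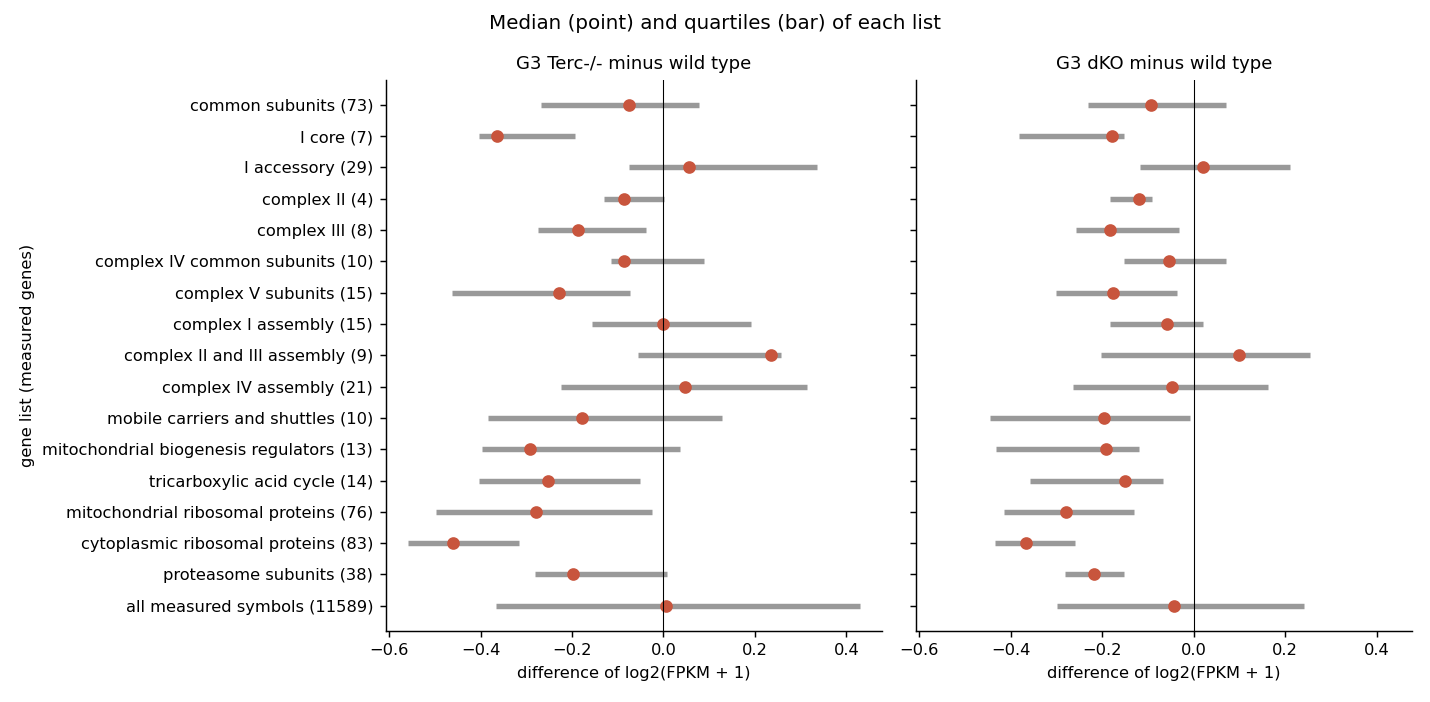
Median (point) and quartiles (bar) of the difference of log2(FPKM + 1) from wild type for subgroups of the respiratory chain, for neighbouring gene lists and for all measured symbols, in G3 Terc-/- (left) and the library labelled G3 dKO (right). The complex I core (-0.36) and complex V (-0.23) lie to the left of 0 in G3 Terc-/-, and the complex I accessory subunits (0.06) to the right.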

How the data were processed

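Oligo(dT)-selected RNA from fibroblasts of each genotype gave 1 library, 4 in all, as the labels' protocols describe. The values used are FPKM, deposited by the authors as 1 table per library with 1 value per symbol. The submitters' processing notes name TopHat2 2.1.1, Cufflinks 2.2.1 and mm9 but give no order of steps. The annotation, the strand setting and any filters are not given in the sources used here, so the 21 members with a near-identical copy and the 26 whose exons overlap another gene are less certain.

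The members and gene lists were chosen with earlier results of these data known. Of 23235 symbols, 736 of short non-coding RNA were left out, and 11589 with a mean of at least 1 FPKM were measured. Differences are of log2(FPKM + 1), a pseudocount of 1 FPKM, in 5 comparisons. No test was made. The self-check put differences well past the 2-fold rule into well-expressed genes of a simulated library and recovered them. It checks the arithmetic only and says nothing of the calls of low genes. The genes named are those 2-fold apart in any comparison, the 5 most different each way in the 2 comparisons with the G3 Terc-/- library, the most abundant of each complex, the core subunits, the paralogue sets, the X-linked members, Gadd45a and Terc. A result that this rule selects is not reported here. Others, and the neighbouring genes given with values, were chosen after their values were seen.

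Depth was estimated from values up to 0.05 FPKM of transcripts of 1500 to 8000 nt, which fall on steps of 1 fragment for a given length. With fragments of 200 nt, 73.4% to 76.2% of them lay within 0.1 of a whole fragment, and the estimates were set at the commonest step of the same values. Depth was set with transcript length less fragment length, but the fragments of single genes with full length. Their counts and intervals may therefore be too high for short genes. Size factors by median of ratios ranged from 0.976 to 1.02. Transcript lengths, overlaps and copies came from GENCODE M21, an annotation of another build than the files' own, matched by symbol for all 85 members, with copies searched by BLAST 2.17.0. Python 3.11.15, numpy 2.4.6, pandas 2.3.3 and scipy 1.17.1 were used.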

Additional observations from a re-analysis of the deposited data

Results flagged for a closer look

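For 2 members the libraries showed opposite differences under the same contrast, each past the 1.5-fold rule, and with 1 library per genotype neither difference between the contrasts was tested. Ndufa4l2 was higher by 1.21 on the log2(FPKM + 1) scale in the library labelled Gadd45-/- than in wild type, and stood at -2.00 in the library labelled G3 dKO against G3 Terc-/-. Ndufs5 was higher by 1.59 in G3 Terc-/- than in wild type, and stood at -0.87 in the library labelled G3 dKO against that labelled Gadd45-/-, with the limit that its near-identical copy may take a share of its fragments.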

How the results depend on the processing

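No paired analysis was possible because each genotype has 1 library. The 2-fold counts turn on a few low genes and moved as follows. With only genes of mean FPKM of at least 10, G3 Terc-/- against wild type had 3 higher and 0 lower. A pseudocount of 5 FPKM gave 0 lower in that comparison, 1 higher in the library labelled Gadd45-/- against wild type and 2 higher in the library labelled G3 dKO against wild type. A pseudocount of 0.1 FPKM gave 1 higher in the library labelled G3 dKO against G3 Terc-/- and 1 lower in the library labelled Gadd45-/- against wild type. Without the restricted isoforms and the non-subunits, the counts were 1 higher and 0 lower in G3 Terc-/- against wild type, 0 lower in the library labelled G3 dKO against G3 Terc-/-, 1 higher in that labelled Gadd45-/- against wild type, 0 higher in that labelled G3 dKO against that labelled Gadd45-/-, and 1 higher in that labelled G3 dKO against wild type. Without Ndufs5 as well, a choice made after seeing the data, all of these were 0. Smaller sets hold fewer genes to count, and for the pseudocounts the cause was not tested. The median of complex V kept its sign in 11 of 11 alternatives in each of the 5 comparisons, and lay between -0.23 and -0.14 in G3 Terc-/- against wild type. That of complex IV there kept it in 9 of 11, between -0.09 and 0.07. Of 410 differences of single members per setting, only those of at least 2-fold were checked for a change of sign. None of these reversed under median-of-ratios scaling, quantile normalization or either pseudocount. Of the 410, 22 moved by 0.1 or more with a pseudocount of 0.1 FPKM and 31 with 5 FPKM. Under quantile normalization 24 moved so, and under median-of-ratios scaling 0. Scaling moved the median of all genes to at most -0.07, under quantile normalization in G3 Terc-/- against wild type. The median of all members there was -0.09, so these lay closer together than the main values of 0.01 and -0.07. For the library labelled G3 dKO against G3 Terc-/-, the median of all members kept its sign in 6 of 11 alternatives. Depth limits Ndufa4l2, Cox4i2 and Cox6a2, whose low values stand for 4 to 10 estimated fragments.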
